A study of Mus musculus with 31 samples.

Results

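Histones package DNA into nucleosomes, and 44 histone genes were followed here across 9 blood cell populations sorted from mouse bone marrow. The members are the genes whose current symbol starts with H1f, H2ac, H2bc, H3c, H4c, H2az, H2ax, H3f3, H3-3 or macroH2a, or whose older symbol starts with Hist1h, Hist2h, Hist3h, Hist4h or H2af. Of 93 RefSeq genes that meet this rule, 44 have an array probe of their own, out of 19938 genes in all with such a probe. They comprise 28 replication-dependent genes, 9 variant genes and 7 genes known from the germline. The other 49 genes, among them H1f0 and H3f3b, have no probe that pairs with a single gene.

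Core histones H2A, H2B, H3 and H4 form the nucleosome and linker histone H1 binds the DNA where it enters and leaves. Replication-dependent genes lie in clusters, carry no introns and make most of their mRNA while DNA is copied in S phase. This mRNA ends in a stem-loop bound by SLBP instead of a poly(A) tail, and a few of the genes also make polyadenylated mRNA, known above all from cells that have left the cycle. Variant histones such as H2A.Z, macroH2A and H3.3 are made from ordinary spliced, polyadenylated mRNA outside S phase too. In marrow, long-term stem cells are known to be largely quiescent, progenitors to cycle, and granulocytes to stop dividing as they mature.

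RNA was measured on 31 Affymetrix whole-transcript arrays, 1 for each sample of 20000 double-sorted cells from wild-type C57BL/6 mice. Long-term stem cells (LT-HSC, n = 4) were sorted as Flk2-/CD48-/CD150+ cells of the Lin-/cKit+/Sca1+ gate, short-term stem cells (ST-HSC, n = 3) as the CD48-/CD150- fraction, and the multipotent progenitors MPP2 (n = 3) and MPP3 (n = 3) as the CD48+/CD150+ and CD48+/CD150- fractions of the same Flk2- gate. MPP4 (n = 5) were the Flk2+ fraction of that gate. Common myeloid progenitors (CMP, n = 3) were Lin-/cKit+/FcγR-/CD34+ and granulocyte-macrophage progenitors (GMP, n = 4) Lin-/cKit+/FcγR+/CD34+. Pre-granulocytes (PreGr, n = 3) were sorted as Mac1+/Gr1int and granulocytes (Gr, n = 3) as Mac1+/Gr1hi. All groups share strain, genotype and tissue, no group was treated, and age, sex and the number of animals in a sample were not used here. The labels call the replicates biological, without naming an animal, so p-values measure the spread between these samples.

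The arrays fell into 5 sets by their deposited medians and by values identical between arrays, and no label names these sets. LT-HSC 1 to 3 form set 1. LT-HSC 4, MPP3 3, MPP4 4 and 5 and GMP 4 form set 2. ST-HSC, MPP2 and MPP3 1 and 2 form set 3, MPP4 1 to 3 and CMP form set 4, and GMP 1 to 3, PreGr and Gr form set 5. Values below are log2 values after quantile normalization. Changes are log2 differences from a limma fit to all 31 arrays with the set as a block, and a gene was called at an adjusted p under 0.05. MPP2 or MPP3 against ST-HSC, CMP against MPP4, PreGr against GMP and Gr against PreGr thus rest on arrays within 1 set. Every comparison with LT-HSC rests on LT-HSC 4 as its only LT-HSC array. ST-HSC and MPP2 against LT-HSC rest as well on MPP3 3, set against MPP3 1 and 2, since MPP3 links their sets. Probes differ in brightness, so the level of 1 gene was not set against that of another. Sort markers such as Slamf1 and Ly6g followed the gates. Slamf1, the gene of CD150, averaged 8.71 in LT-HSC and 5.05 in ST-HSC, and Ly6g averaged 5.33 in GMP and 12.8 in Gr. Flt3, the gene of Flk2, was highest in MPP4 at 11.27. Within the Flk2- gate, however, it averaged 9.96 in ST-HSC and 9.72 in MPP3, against 8.21 in LT-HSC and 8.18 in MPP2.

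Promoters were read to show what these genes share beside their names. RefSeq promoters (GRCm38.p6) matched 37 of the 44 members, and the 250 bases before the annotated start were searched on both strands for the box CCAAT, for the box TATAAA, and for the octamer ATTTGCAT. The box AAACACA, known from H1 promoters, was searched likewise. CCAAT was found in 18 of 23 replication-dependent promoters (78.3%), 4 of 7 variant promoters (57.1%) and 33.8% of all 32851 promoters. TATAAA was found in 13 of the 23 (56.5%), in 0 of the 7 variant promoters and in 12.4% of all. The octamer, known from H2B promoters, was found in 7 of the 23 (30.4%), among them 4 of 7 H2B promoters (57.1%), in 0 of 7 variant promoters and in 1.6% of all. AAACACA was found in 3 of 4 replication-dependent H1 promoters (75%), 5 of the 23 (21.7%), 1 of 7 variant promoters (14.3%) and 6.25% of all. Of 7 germline promoters 5 held CCAAT (71.4%), 2 TATAAA (28.6%), 2 the octamer (28.6%) and 3 AAACACA (42.9%). The windows of H2bc8 and H2ac8 overlap, as do those of H2bc1 and H2ac1, so these pairs share sequence. A match describes letters and is no evidence of binding.

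The last 150 bases before the start are given for 6 members, 5′ to 3′ on the gene's strand, with the searched motifs in capitals on either strand; none of these motifs overlap. H2ac4 (chr13:23750938-23751087, plus strand) had the largest change of any member, H2bc14 (chr13:21721894-21722043, plus) and H4c4 (chr13:23581418-23581567, plus) stand for the core histones and H1f5 (chr13:21780626-21780775, minus) for the linker histones that moved with them. H1f2 (chr13:23738657-23738806, plus) moved the other way, and H2az1 (chr3:137864337-137864486, plus) is a variant.
H2ac4: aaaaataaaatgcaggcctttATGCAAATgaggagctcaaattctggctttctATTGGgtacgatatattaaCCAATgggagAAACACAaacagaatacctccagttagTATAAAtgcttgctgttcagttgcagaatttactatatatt
H2bc14: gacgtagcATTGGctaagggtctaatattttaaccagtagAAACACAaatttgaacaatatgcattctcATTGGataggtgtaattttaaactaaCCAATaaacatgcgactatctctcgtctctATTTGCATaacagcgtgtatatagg
H4c4: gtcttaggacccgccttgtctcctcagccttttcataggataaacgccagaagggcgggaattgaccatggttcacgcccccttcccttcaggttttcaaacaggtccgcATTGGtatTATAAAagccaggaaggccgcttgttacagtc
H1f5: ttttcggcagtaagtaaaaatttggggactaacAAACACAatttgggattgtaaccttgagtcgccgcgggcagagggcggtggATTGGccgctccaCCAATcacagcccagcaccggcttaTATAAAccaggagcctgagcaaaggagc
H1f2: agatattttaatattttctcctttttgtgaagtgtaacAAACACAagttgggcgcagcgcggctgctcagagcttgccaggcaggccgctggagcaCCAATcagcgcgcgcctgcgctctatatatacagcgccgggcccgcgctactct
H2az1: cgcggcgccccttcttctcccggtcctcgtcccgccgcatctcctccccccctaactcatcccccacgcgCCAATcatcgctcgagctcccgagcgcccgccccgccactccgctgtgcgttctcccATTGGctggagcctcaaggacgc
H2ac4 carries all 4 motifs in this stretch, while H2az1 carries CCAAT alone. H1f2 holds the same CCAAT and AAACACA letters as H1f5 but no TATAAA.

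Most histone genes differed somewhere among the 9 populations. By limma's F test, 24 of 28 replication-dependent members, 9 of 9 variants and 4 of 7 germline members differed, against 48.0% of all genes. The members not called were H1f3, H2bc4, H2bu1-ps, H2bu2, H1f6, H1f7 and H2ab1. The median over the 28 replication-dependent members, before adjustment for the set, was lowest in the stem cells. It was 8.30, 8.59, 8.52 and 8.85 in LT-HSC and 8.58, 8.85 and 8.16 in ST-HSC. It was highest in MPP2, at 10.08, 10.20 and 9.95. MPP3 had 9.77, 9.75 and 9.34, MPP4 had 9.11, 8.96, 8.72, 9.82 and 9.72, CMP had 9.74, 9.62 and 9.74 and GMP had 9.18, 9.22, 9.36 and 9.28. PreGr stood at 9.68, 9.64 and 9.32, and Gr spread widely at 9.50, 8.66 and 8.26. MPP4 split by set, since the set 4 arrays were MPP4 1 to 3 and the higher set 2 arrays MPP4 4 and 5. The order of populations in different sets was not tested here, and the set-adjusted changes below need not keep it. Fewer cells of a type and less RNA per cell cannot be told apart in such bulk samples.

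**Figure D1:**
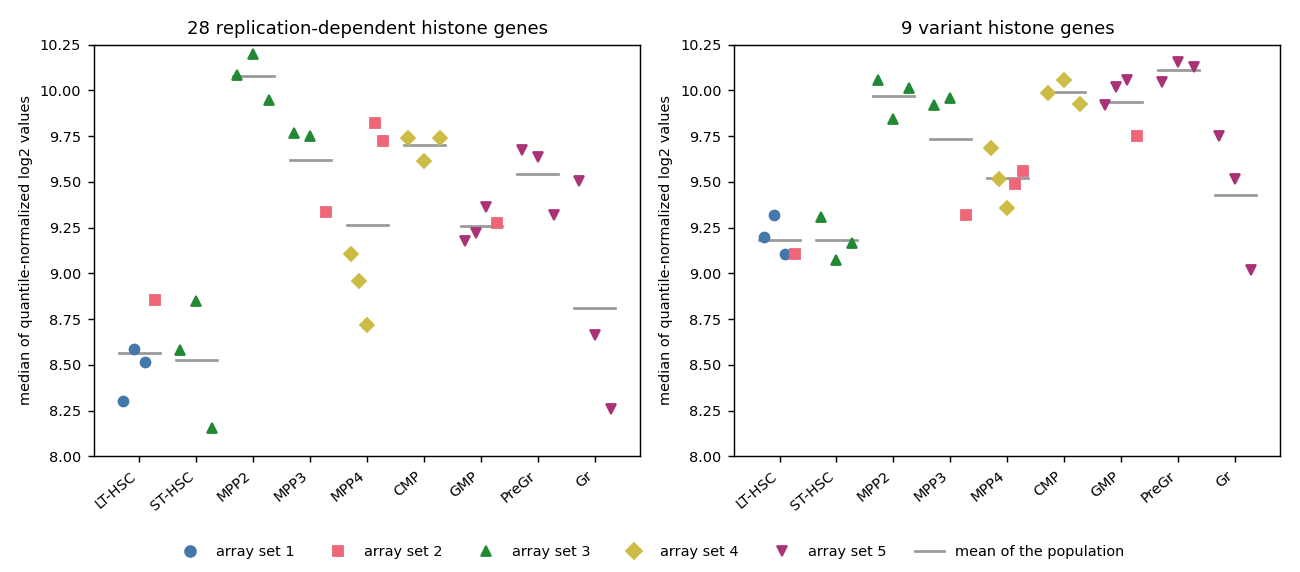
Each point is 1 array, giving the median quantile-normalized log2 value over the 28 replication-dependent (left) or 9 variant (right) histone genes, with populations on the horizontal axis, array sets by colour and shape, and the population mean as a grey line. The MPP2 arrays sit at 9.95 to 10.20 on the left, above all ST-HSC arrays at 8.16 to 8.85, and the 3 Gr arrays run from 8.26 to 9.50.

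Replication-dependent histone mRNA was higher in MPP2, the CD48+/CD150+ progenitors, than in ST-HSC: 20 of 28 members rose and 2 fell, where 4.88% of all genes rose and 5.95% fell. The median change of the 28 was 1.24, against 0.066 over all genes. All of these arrays lie in set 3. Every H4 member rose (7 of 7, median 1.34), as did 3 of 4 H2A, 7 of 10 H2B, 2 of 4 H1 and 1 of 3 H3 members. H1f2 and H2bc4 fell, and H1f3, H2ac8, H2bc21, H2bu1-ps, H3c7 and H3c15 were not called. Of the 28 genes, the 20 on chromosome 13, which holds the main histone cluster, had 15 higher and 2 lower (median 1.31), and the 4 on chromosome 3 had 2 higher (median 1.24).

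H2ac4, a gene of canonical H2A, showed the largest change. Its values were 6.81, 7.87 and 5.93 in ST-HSC and 10.54, 11.40 and 11.01 in MPP2. All MPP2 arrays exceeded all ST-HSC arrays, although the ST-HSC arrays themselves spread widely. The change was 4.12 (SE 0.45, adjusted p = 1.03e-06), or 17.3-fold. H2ac15, another canonical H2A gene, had 9.49, 9.93 and 9.39 in ST-HSC and 11.92, 12.03 and 11.88 in MPP2. With a change of 2.34 (SE 0.23, adjusted p = 1.89e-07), it too had groups that did not overlap.

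Among H2B genes, H2bc3 had 7.95, 8.57 and 7.56 in ST-HSC against 9.91, 10.70 and 9.98 in MPP2. It rose by 2.16 (SE 0.25, adjusted p = 2.93e-06). H2bc14, whose promoter above carries the octamer, had 9.33, 9.57 and 9.17 against 11.11, 11.26 and 11.09. Its rise was 1.80 (SE 0.21, adjusted p = 2.84e-06), with tight values in MPP2. H4c6, which like the other H4 genes encodes the same H4 protein, had 8.94, 9.11 and 8.25 against 10.81, 11.07 and 10.86. The change of H4c6 was 2.14 (SE 0.29, adjusted p = 1.95e-05). H4c4 had 11.88, 11.78 and 11.40 against 12.97, 12.99 and 12.95, a change of 1.28 (SE 0.17, adjusted p = 2.00e-05). Its MPP2 arrays were nearly equal.

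Linker histone genes split. H1f1 had 8.28, 7.99 and 8.06 in ST-HSC and 10.26, 10.13 and 10.33 in MPP2, and rose by 2.13 (SE 0.20, adjusted p = 1.47e-07). H1f5 had 8.998, 9.56 and 8.60 and 10.97, 10.92 and 11.28, and rose by 2.00 (SE 0.25, adjusted p = 6.37e-06). These H1 genes moved with the core histones. H1f2 had 11.07, 11.15 and 10.22 in ST-HSC and 10.35, 9.50 and 9.86 in MPP2, where ST-HSC 3 lay inside the MPP2 range. The change of H1f2 was -0.91 (SE 0.25, adjusted p = 0.0179), and the call ended without ST-HSC 1, ST-HSC 2 or MPP2 2, when it was -0.78 (adjusted p = 0.0972), -0.74 (adjusted p = 0.0894) and -0.71 (adjusted p = 0.103). H1f3 was not called, with 5.59, 5.77 and 5.66 in ST-HSC and 5.98, 5.51 and 5.73 in MPP2, a change of 0.069 (SE 0.16, adjusted p = 0.819). Its mean over all arrays, at 6.12, lies among the lowest 20% of genes, so this value says little about H1f3.

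**Figure D2:**
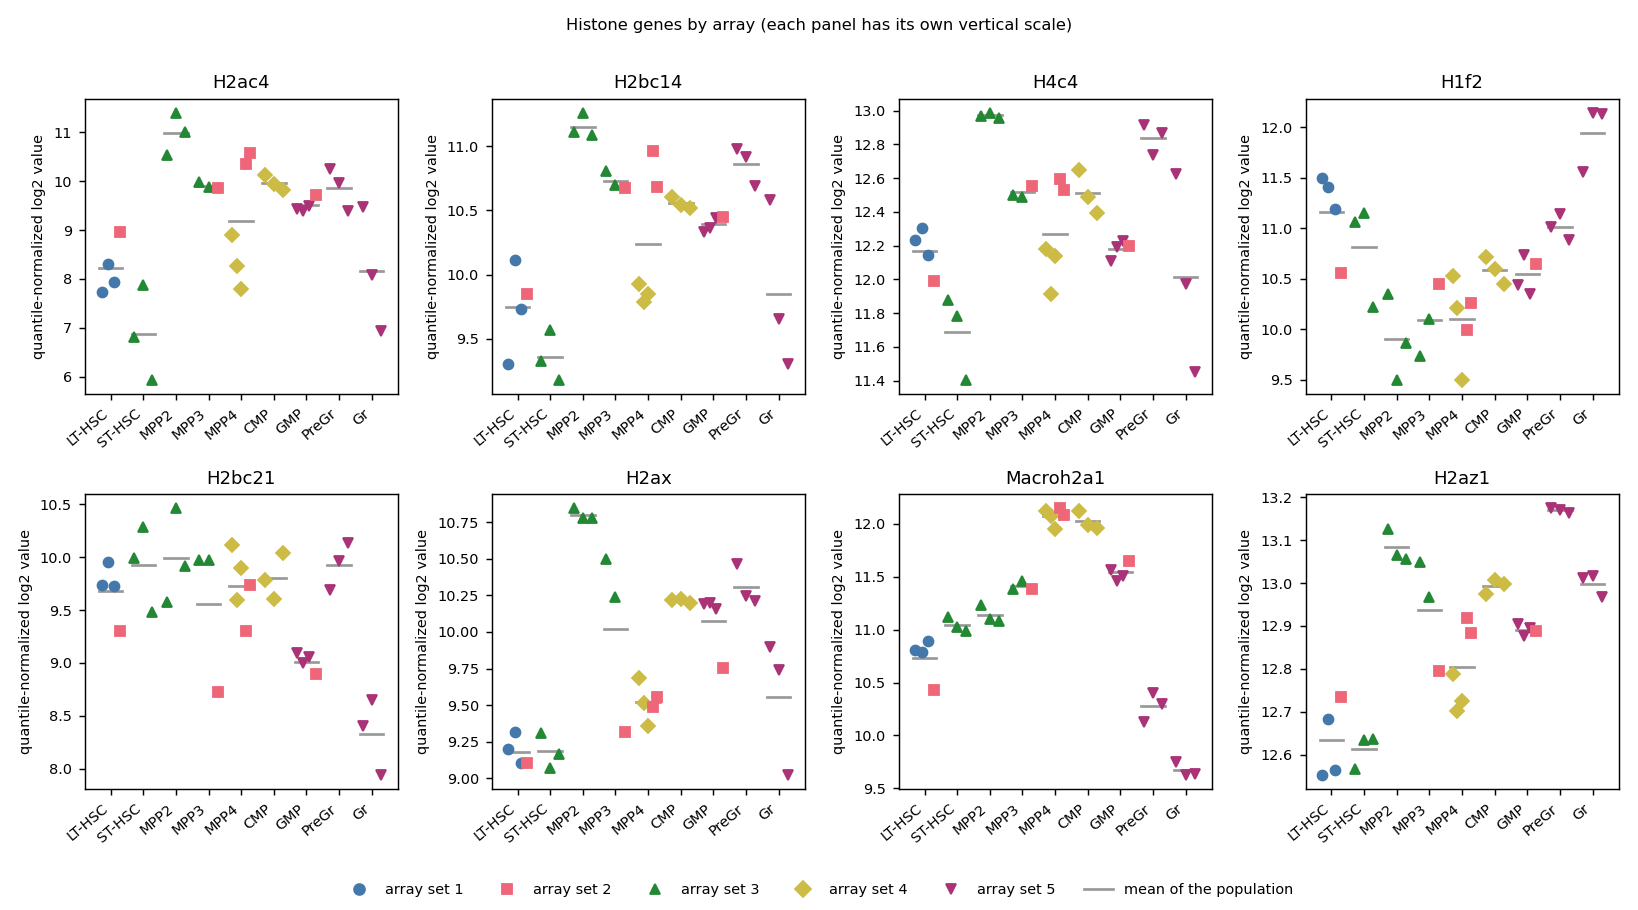
Each panel plots 1 histone gene, with populations on the horizontal axis, the quantile-normalized log2 value of each array on the vertical axis (a separate scale per panel), array sets by colour and shape, and population means as grey lines. H2ac4 runs from 5.93 in ST-HSC 3 to 11.40 in MPP2 2, H1f2 has its highest values in Gr, and Macroh2a1 peaks in MPP4 and CMP and is lowest in Gr.

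MPP3, the CD48+/CD150- progenitors, also exceeded ST-HSC. Here 11 of 28 replication-dependent members rose and 0 fell, against 1.96% of all genes higher and 1.16% lower, with a median of 0.57 (all genes -0.0086). H2ac4 led again, with 9.98, 9.87 and 9.86 in MPP3, where MPP3 3 belongs to set 2. Its change was 3.06 (SE 0.50, adjusted p = 4.75e-04). The next were H2bc3 at 1.77, H2ac15 at 1.73, H1f5 at 1.66, H1f1 at 1.58 and H4c6 at 1.46, with adjusted p from 8.69e-05 for H1f1 to 0.00941 for H4c6. H1f2 was at -0.89 (SE 0.28, adjusted p = 0.0886), not called. Leaving out MPP3 1 or MPP3 2 left 7 of the 11 calls. The call of H4c6 ended without either, or without ST-HSC 3, at 1.21 (adjusted p = 0.0614).

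Markers of other cell types moved with this comparison. Of 8 measured B and plasma cell markers, 4 were higher in MPP3 than in ST-HSC, led by Jchain at 6.71 (SE 0.94, adjusted p = 7.57e-05), and 0 were lower; the log2 of their summed level ran from 9.96 to 10.17 in ST-HSC and from 12.02 to 12.35 in MPP3. In MPP2 it ran from 10.37 to 11.94 and 1 marker was higher than in ST-HSC. Granulocyte markers (2 of 8 higher) summed to 12.64 to 13.10 in MPP3 against 10.17 to 10.83 in ST-HSC, and T and NK cell markers (3 of 7 higher) to 10.92 to 11.28 against 9.75 to 10.03. In MPP2 those sums were 10.78 to 11.45 and 10.71 to 10.98, with 1 marker of each list higher than in ST-HSC. Of 5 megakaryocyte markers, 4 were higher in MPP2 than in ST-HSC (summed log2 level 11.94 to 12.16 against 10.49 to 11.12), with 3 of 9 erythroid markers (11.89 to 12.45 against 10.82 to 10.997). The part of these markers in the histone changes was not tested.

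No histone gene was called between MPP2 and MPP3. No replication-dependent or variant member was called by limma, where 1.06% of all genes were, although 14 of 28 and 4 of 9 had an unadjusted p under 0.05. The median of the 28 was 0.41 (all genes 0.062), and 24 of them had a positive change. H2ac4 had the value 1.06 (SE 0.50, adjusted p = 0.36). A p that misses the threshold does not show that the 2 populations are alike.

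Comparisons with LT-HSC rested on LT-HSC 4, and those of ST-HSC and MPP2 also on MPP3 3. Few histone genes with a probe of their own were called in them. ST-HSC against LT-HSC gave 0 of 28 replication-dependent and 0 of 9 variant calls by limma, against 1.47% of all genes, with 4 and 3 at an unadjusted p under 0.05. The median of the 28 was -0.36 (all genes 0.094) and 25 had a negative change. In MPP2 against LT-HSC 2 of 28 rose and 0 fell (all genes 5.36% higher, 2.80% lower), and in MPP4 against LT-HSC again 2 rose and 0 fell (all genes 1.39% and 1.35%). Medians were 0.85 and 0.58, against 0.16 and 0.049 over all genes. Without the set block 22 and 9 of the 28 were called. Of all 19938 genes, 3441 were then higher and 3756 lower in MPP2, and 2457 higher and 2475 lower in MPP4. These comparisons share LT-HSC, so they do not support each other.

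H2bc8 and H1f1 were the members called in them. H2bc8, an H2B gene, had 10.57, 10.35, 10.12 and 9.15 in LT-HSC, 11.09, 11.41 and 11.26 in MPP2 and 11.19, 10.88, 10.64, 10.81 and 11.26 in MPP4. LT-HSC 4 was the lowest LT-HSC array, and every MPP2 and MPP4 array was above all LT-HSC arrays. The set-adjusted change was 1.78 (SE 0.47, adjusted p = 0.0248) in MPP2 and 1.88 (SE 0.34, adjusted p = 0.00271) in MPP4. H1f1 had 8.19, 8.67, 8.52 and 8.40 in LT-HSC and 9.11, 8.77, 8.78, 9.93 and 9.55 in MPP4, with changes of 1.45 (SE 0.41, adjusted p = 0.0337) in MPP2 and 1.34 (SE 0.30, adjusted p = 0.0157) in MPP4. Both MPP2 calls ended without MPP3 1, at 1.63 (adjusted p = 0.074) for H2bc8 and 1.56 (adjusted p = 0.0561) for H1f1, and that of H1f1 also without MPP3 2, at 1.34 (adjusted p = 0.0809). In MPP4, H1f1 was no longer called without MPP4 4, at 1.15 (adjusted p = 0.114).

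CMP had more replication-dependent histone mRNA than MPP4 within set 4. Of 28 members 8 rose and 0 fell, against 4.41% of all genes higher and 2.82% lower, and the median was 0.57 (all genes 0.024). H2ac4 had 8.90, 8.26 and 7.80 in MPP4 1 to 3 and 10.12, 9.95 and 9.83 in CMP. Its change was 1.64 (SE 0.45, adjusted p = 0.0265), with no overlap. MPP4 4 and 5 of set 2 stood at 10.35 and 10.58, above every CMP array, and without the set block 0 of the 28 were called. H2ac15 (1.01), H2bc3 (0.97), H1f5 (0.89), H4c3 (0.87) and H2bc14 (0.70) also rose, with adjusted p from 0.00728 to 0.0462. Only H2ac15 among the 8 kept its call whichever of the 6 arrays was left out, and the count fell to 1 without MPP4 2, MPP4 3 or CMP 1 and to 2 without CMP 2 or CMP 3. All 5 megakaryocyte markers and 4 of 9 erythroid markers were higher in CMP as well. So were 2 of 8 granulocyte markers (summed log2 level 12.82 to 12.96 in CMP, 11.07 to 11.99 in MPP4) and 3 of 7 monocyte markers (10.47 to 10.90 against 9.62 to 9.84), and the part of all these markers in the histone changes was not tested.

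GMP against CMP is linked through GMP 4 and the MPP4 arrays. Here 0 of 28 rose and 2 fell (all genes 0.632% and 0.692%), with a median of -0.83 (all genes 0.022). H2ac15 had 11.77, 11.78 and 11.75 in CMP and 11.26, 11.31, 11.40 and 11.11 in GMP, where GMP 4 is the last value. H2aw, a canonical H2A gene on chromosome 11, outside the main cluster, had 11.23, 11.46 and 11.12 and 10.82, 11.03, 10.97 and 10.88. Their set-adjusted changes were -1.69 (SE 0.41, adjusted p = 0.0368) and -1.23 (SE 0.26, adjusted p = 0.0159), larger than the raw differences since the fit subtracts the gap between MPP4 of set 2 and of set 4. H2ac15 lost its call without MPP4 2, 3 or 4 or any 1 of the CMP arrays (adjusted p 0.0584 to 0.155). Without the set block neither was called, at -0.50 for H2ac15 and -0.35 for H2aw, and 1 other member was. Of 5 megakaryocyte markers 3 were lower in GMP (summed log2 level 9.68 to 9.88 against 11.73 to 11.82 in CMP), as was 1 of 9 erythroid markers (10.96 to 11.13 against 12.17 to 12.30). Of 7 monocyte markers 2 were higher (11.72 to 12.02 against 10.47 to 10.90), as was 1 of 8 granulocyte markers (13.60 to 14.19 against 12.82 to 12.96). Their part in the histone changes was not tested.

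In PreGr against GMP few replication-dependent genes were called, in both directions. Of 28 members 3 rose and 1 fell, against 7.99% of all genes that rose and 11.0% that fell, and the median was 0.14 (all genes 0.012). H4c4 had 12.11, 12.19 and 12.23 in GMP 1 to 3 and 12.91, 12.74 and 12.87 in PreGr, a change of 0.66 (SE 0.17, adjusted p = 0.00763). H4c14, another H4 gene, had 10.75, 10.75 and 10.97 and 11.61, 11.36 and 11.29, with a change of 0.59 (SE 0.19, adjusted p = 0.0311) whose call ended without GMP 1, GMP 2, PreGr 1 or PreGr 2. H3c15 fell, from 7.53, 7.24 and 6.32 in GMP to 5.83, 5.12 and 5.17 in PreGr. The change of H3c15 was -1.66 (SE 0.44, adjusted p = 0.00876), and without GMP 1 it was -1.40 (adjusted p = 0.0607). The fourth was H2bc21, an H2B gene taken up with the polyadenylated forms. Of other cell types, 4 of 8 B and plasma cell markers (summed log2 level 10.98 to 11.77 in PreGr, 10.14 to 10.33 in GMP) and 5 of 7 monocyte markers (12.64 to 13.15 against 11.72 to 12.02) were higher in PreGr. So were 4 of 7 T and NK cell markers, although their summed levels overlapped (11.38 to 11.83 against 11.52 to 11.88). The part of all these markers in these changes was not tested.

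Granulocytes had less replication-dependent histone mRNA than pre-granulocytes. In Gr against PreGr 21 of 28 members fell and 1 rose, where 14.0% of all genes fell and 12.5% rose, and the median change was -0.86 (all genes 0.015). Every H2A member fell (4 of 4), with 6 of 7 H4, 7 of 10 H2B, 2 of 3 H3 and 2 of 4 H1 members. Among them H2ac8, of H2A, and H3c7, of H3, had low means over all arrays, at 5.13 and 5.42. These lie below 6.17, the cut for the lowest 20% of genes. With arrays left out 1 at a time, the H2ac8 call ended for 4 of the 6 and the H3c7 call for 3. The count of 22 calls in both directions was 9 without Gr 3.

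Named members show how uneven the Gr arrays were. H2ac4 had 10.25, 9.95 and 9.40 in PreGr and 9.48, 8.08 and 6.93 in Gr. Gr 1 lay within the PreGr range while Gr 3 was far below it. The change of H2ac4 was -1.70 (SE 0.45, adjusted p = 0.00605), and -1.09 (adjusted p = 0.0797) without Gr 3. H2bc3 had 10.17, 10.12 and 9.84 and 9.39, 8.68 and 8.19, and H2bc8 had 10.95, 11.001 and 10.64 and 10.43, 9.57 and 9.01. For both genes all Gr arrays lay below all PreGr arrays, with changes of -1.29 (SE 0.25, adjusted p = 4.31e-04) and -1.19 (SE 0.23, adjusted p = 3.14e-04). H4c6 had 10.56, 10.39 and 10.28 and 10.40, 9.24 and 8.45, and H4c8 had 9.04, 8.65 and 8.37 and 8.49, 7.57 and 6.95. Gr 1 again overlapped PreGr. Their changes were -1.05 (SE 0.29, adjusted p = 0.00871) and -1.02 (SE 0.26, adjusted p = 0.00518), and both calls ended without Gr 3, at -0.59 (adjusted p = 0.113) and -0.66 (adjusted p = 0.0696).

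Gr 1 stood apart from Gr 2 and Gr 3 in these genes. It was the highest Gr array for 26 of 28 replication-dependent members (92.9%), against 35.3% of all 19938 genes, and for 20 of 25 DNA replication genes (80%) but 7 of 17 mitosis genes (41.2%). DNA replication medians were 8.55, 8.02 and 7.55 and mitosis medians 9.10, 9.13 and 8.51 in Gr 1 to 3. Granulocyte markers had medians of 12.33, 12.73 and 12.81 there and 12.30, 11.94 and 11.94 in PreGr, and monocyte markers 8.83, 8.47 and 8.35 and 9.47, 9.30 and 9.76. Without Gr 1 the count of replication-dependent calls was 24, and without Gr 3 it was 9. Of 7 monocyte markers 6 were lower and 1 higher in Gr than in PreGr (summed log2 level 11.13 to 11.90 against 12.64 to 13.15), and 3 of 8 B and plasma cell markers were higher (11.19 to 12.02 against 10.98 to 11.77). Of 7 T and NK cell markers 3 were higher and 3 lower (12.27 to 12.80 against 11.38 to 11.83). The part of cell makeup in these changes was not tested.

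The members H1f2, H2bc4 and H2bc21 are known to make polyadenylated mRNA as well. In MPP2 against ST-HSC 0 of these 3 rose and 2 fell, while 20 of the other 25 rose and 0 fell. H1f2 was highest in Gr, at 11.55, 12.15 and 12.13, against 11.01, 11.14 and 10.88 in PreGr. All Gr arrays lay above all PreGr arrays, and H1f2 rose by 0.93 (SE 0.25, adjusted p = 0.00631), the sole replication-dependent gene to rise there; it kept the call whichever of the 6 arrays was left out. In LT-HSC H1f2 had 11.50, 11.41, 11.19 and 10.56 and in MPP4 10.52, 10.21, 9.50, 9.99 and 10.27. Its 8 uncalled changes ran from -0.89 to 0.79.

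H2bc21, an H2B gene of the chromosome 3 cluster, was not called in MPP2 against ST-HSC. Like H4c4 and H4c14, it was called higher in PreGr than in GMP and lower in Gr than in PreGr. It had 9.10, 9.0 and 9.06 in GMP 1 to 3, 9.69, 9.96 and 10.13 in PreGr and 8.41, 8.65 and 7.93 in Gr. It was thus higher in PreGr than on either side, with changes of 0.88 (SE 0.21, adjusted p = 0.0044) and -1.60 (SE 0.21, adjusted p = 5.03e-06), both kept whichever array was left out. H2bc4 had 9.60, 9.47 and 9.10 in ST-HSC and 8.72, 5.25 and 8.50 in MPP2. Its fall of -1.90 (SE 0.57, adjusted p = 0.0314) was -0.78 (adjusted p = 0.196) without MPP2 2. The call also ended without ST-HSC 1, 2 or 3, at adjusted p of 0.105, 0.0729 and 0.0527. H2bc4 had 8.03, 9.25 and 8.29 in PreGr and 10.35, 9.48 and 9.44 in Gr, a value of 1.23 (SE 0.57, adjusted p = 0.119) that was not called.

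**Figure D3:**
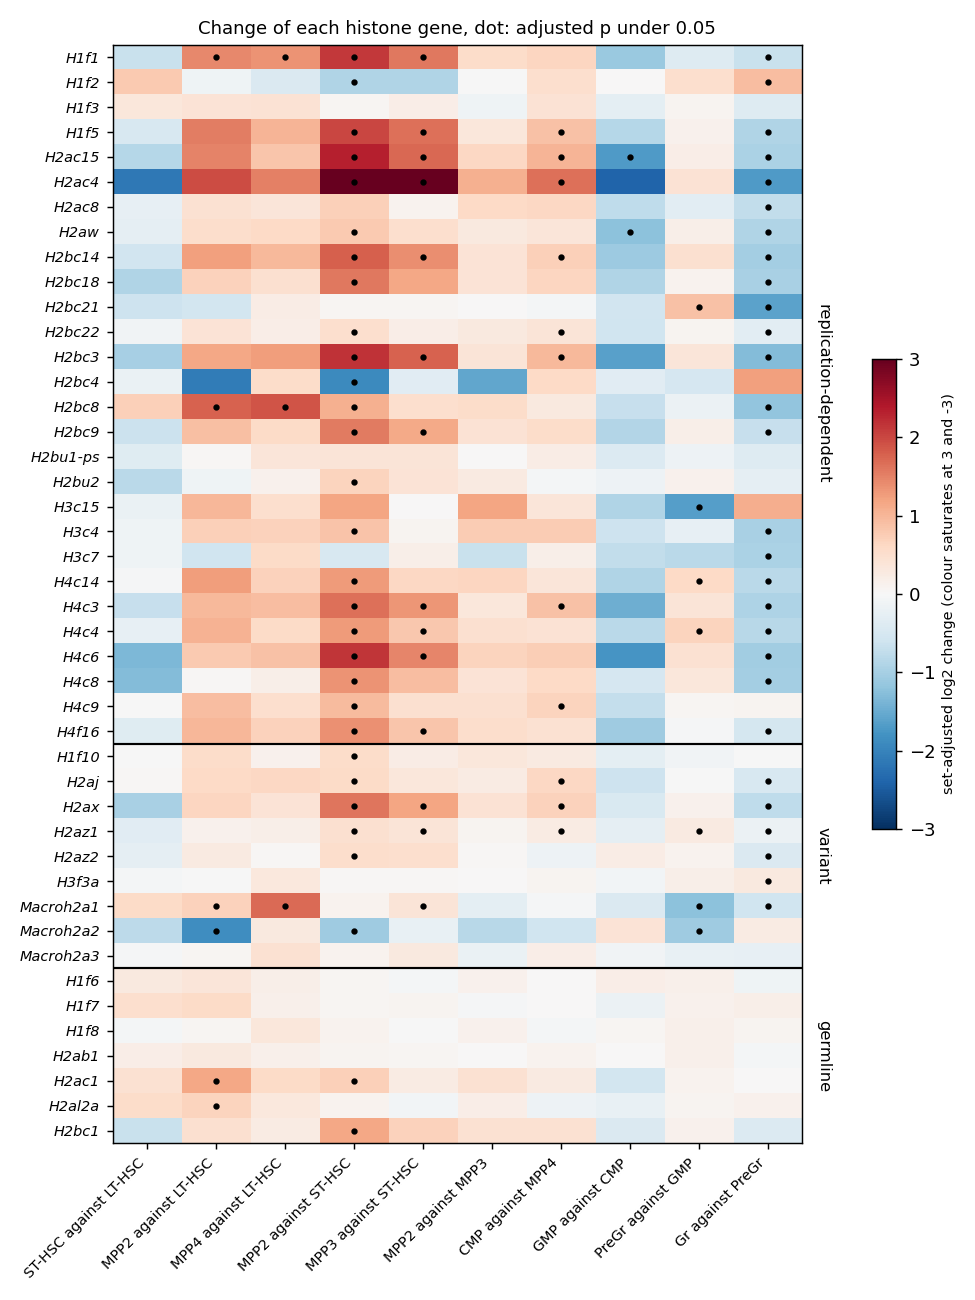
Rows are the 44 histone genes in their 3 classes, columns the 10 comparisons, colour the set-adjusted log2 change (red higher and blue lower in the population named first, saturating at 3 and -3), and dots the genes with an adjusted p under 0.05. Dots fill 20 red and 2 blue replication-dependent rows in MPP2 against ST-HSC and 21 blue and 1 red in Gr against PreGr, while Macroh2a1 is red in MPP4 against LT-HSC and blue from GMP to Gr.

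Of the 9 variant genes 5 rose and 1 fell in MPP2 against ST-HSC (all genes 4.88% and 5.95%), and the median was 0.47. In MPP3 against ST-HSC 3 rose and 0 fell (all genes 1.96% and 1.16%), as in CMP against MPP4 (4.41% and 2.82%). In PreGr against GMP 1 rose and 2 fell (7.99% and 11.0%). Gr against PreGr had 1 higher and 5 lower (12.5% and 14.0%), with 3 called without Gr 2 and 2 without Gr 3. MPP2 against LT-HSC had 1 higher and 1 lower (5.36% and 2.80%; 1 called without MPP3 1) and MPP4 against LT-HSC 1 higher and 0 lower (1.39% and 1.35%). H2ax, whose protein is phosphorylated around DNA breaks, was called in 4 comparisons. Its values were 9.31, 9.07 and 9.17 in ST-HSC, 10.85, 10.78 and 10.78 in MPP2 and 10.50, 10.24 and 9.32 in MPP3. All MPP2 and MPP3 arrays stood above all ST-HSC arrays, MPP3 3 of set 2 only just. The changes were 1.62 (SE 0.15, adjusted p = 8.25e-08) in MPP2 and 1.18 (SE 0.16, adjusted p = 6.52e-05) in MPP3.

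H2ax also rose from MPP4 to CMP, where it had 9.69, 9.51, 9.36, 9.49 and 9.56 and 10.22, 10.22 and 10.20. This change of 0.69 (SE 0.15, adjusted p = 0.00468) was called without the set block too. In Gr it had 9.89, 9.74 and 9.02 against 10.46, 10.24 and 10.21 in PreGr, with no overlap and a change of -0.75 (SE 0.15, adjusted p = 3.59e-04). H2aj, another H2A variant, moved as H2ax did, at 0.58 (MPP2 against ST-HSC), 0.61 (CMP against MPP4) and -0.49 (Gr against PreGr), with adjusted p of 0.00684, 0.00747 and 0.0092. The fall in Gr was no longer called without Gr 2 or Gr 3, nor the rise in CMP without MPP4 3.

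The H2A.Z genes, whose product marks promoters and enhancers, moved little. H2az1 had 12.57, 12.63 and 12.64 in ST-HSC and 13.13, 13.07 and 13.06 in MPP2. This narrow gap was larger than the spread, with a change of 0.47 (SE 0.06, adjusted p = 9.07e-06), and MPP3 was at 0.39 (SE 0.067, adjusted p = 7.37e-04). PreGr stood at 13.18, 13.17 and 13.16, above GMP 1 to 3 at 12.90, 12.88 and 12.89 and Gr at 13.01, 13.02 and 12.97. The changes were 0.28 (SE 0.06, adjusted p = 0.0015) and -0.17 (SE 0.06, adjusted p = 0.0376), and the latter ended without any 1 of the 6 arrays. CMP against MPP4 was at 0.25 (SE 0.06, adjusted p = 0.011), not called without MPP4 2. A dimmer probe of H2az1 gave means of 12.53 in ST-HSC, 12.83 in MPP3 and 13.05 in PreGr. H2az2 was called at 0.53 (SE 0.13, adjusted p = 0.0101) in MPP2 against ST-HSC and at -0.44 (SE 0.13, adjusted p = 0.0164) in Gr against PreGr, the latter not without PreGr 2, Gr 2 or Gr 3.

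MacroH2A1, a large H2A variant with a macro domain known from repressed chromatin, had its own course. Macroh2a1 had 10.80, 10.79, 10.89 and 10.43 in LT-HSC, 11.12, 11.02 and 10.99 in ST-HSC, 11.24, 11.10 and 11.09 in MPP2 and 11.39, 11.46 and 11.39 in MPP3. It stood at 12.12, 12.07, 11.96, 12.15 and 12.08 in MPP4 and 12.12, 11.99 and 11.96 in CMP. The highest values were thus those of MPP4 and CMP, which overlap, and their difference was -0.026 (SE 0.079, adjusted p = 0.902). Values were lower at 11.56, 11.46, 11.51 and 11.65 in GMP, 10.13, 10.40 and 10.30 in PreGr and 9.75, 9.62 and 9.63 in Gr, with no overlap between these 3 populations.

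Macroh2a1 had the largest F of any member and was called in MPP4 against LT-HSC at 1.69 (SE 0.12, adjusted p = 8.69e-09), a 3.23-fold rise. It was called in MPP2 against LT-HSC at 0.68 (SE 0.16, adjusted p = 0.0161), in PreGr against GMP at -1.23 (SE 0.079, adjusted p = 3.95e-11) and in Gr against PreGr at -0.61 (SE 0.079, adjusted p = 3.53e-06). MPP3 against ST-HSC was at 0.38 (SE 0.088, adjusted p = 0.0136), a call that ended without ST-HSC 3, MPP3 1 or MPP3 2. The other 4 kept their call whichever array with weight was left out, except LT-HSC 4, without which no LT-HSC comparison could be fitted, and MPP3 3, without which MPP2 against LT-HSC could not.

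Macroh2a2, which encodes the related macroH2A2, was low in MPP2, though not there alone. It had 8.05, 7.90, 7.75 and 7.58 in LT-HSC, 7.95, 7.99 and 7.74 in ST-HSC and 6.37, 6.72 and 7.42 in MPP2. MPP3 had 7.83, 7.49 and 6.55, where MPP3 3 lay inside the MPP2 range, and MPP2 against MPP3 was not called. The fall of MPP2 against ST-HSC was -1.06 (SE 0.22, adjusted p = 0.00206). Against LT-HSC it was -1.85 (SE 0.45, adjusted p = 0.0173), and -1.68 (adjusted p = 0.0564) without MPP3 1. The change against LT-HSC includes the gap between MPP3 3 and MPP3 1 and 2. MPP4 1 to 3 had 8.86, 8.43 and 9.06, and MPP4 4 and 5 had 7.79 and 7.96. GMP 1 to 3 had 8.23, 7.63 and 7.72 and PreGr 6.87, 6.99 and 6.51, a change of -1.07 (SE 0.22, adjusted p = 8.15e-04). Gr had 6.98, 6.85 and 7.30, and in Gr against PreGr Macroh2a2 was at 0.25 (SE 0.22, adjusted p = 0.455). Macroh2a3, a transcribed pseudogene in the annotation, was not called in any of the 10 comparisons.

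H1f10, the replication-independent linker histone H1.10, was called in MPP2 against ST-HSC alone among the 10, with 7.91, 7.82 and 7.91 and 8.27, 8.65 and 8.39. Its change was 0.56 (SE 0.11, adjusted p = 0.00179), and the other 9 ran from -0.29 to 0.55. H3f3a, a gene of H3.3, the variant that replaces H3 outside S phase, had 7.95, 8.03 and 8.01 in PreGr and 8.32, 8.14 and 8.38 in Gr. The change of 0.28 (SE 0.09, adjusted p = 0.0208) was opposite to the 5 variants that fell there and ended without PreGr 1, Gr 1 or Gr 3. In MPP2 against ST-HSC H3f3a was at 0.046 (SE 0.09, adjusted p = 0.78). For the other variants, the 6 uncalled changes ran from -0.97 to 0.65 for H2ax, the 5 uncalled changes ran from -0.34 to 0.17 for H2az1 and the 8 uncalled changes ran from -0.27 to 0.50 for H2az2. The 7 uncalled changes ran from -0.63 to 0.62 for H2aj, the 5 uncalled changes ran from -0.44 to 0.58 for Macroh2a1, the 7 uncalled changes ran from -0.82 to 0.41 for Macroh2a2 and the 9 uncalled changes ran from -0.09 to 0.31 for H3f3a.

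Probes that pair with several genes show the histone genes without a probe of their own, as families. There are 33, and they were tested in a fit over all 35557 probes that was added after the data were seen; probes of a family share sequence and genes, so they are not independent. The 10 H3 probes, each pairing with 12 H3 paralogues, averaged 8.43 (range 8.18 to 8.63 over 3 arrays) in ST-HSC and 10.90 (range 10.81 to 10.97 over 3 arrays) in MPP2. All 10 rose in MPP2 against ST-HSC (median 2.46; all probes called 7.61%), in MPP3 against ST-HSC (1.58; 2.05%) and in CMP against MPP4 (1.42; 6.12%). In Gr against PreGr all 10 fell, with a median of -1.40 (21.4%). The 7 H2B and 5 H4 probes all rose in MPP2 against ST-HSC (medians 1.56 and 1.10) and all fell in Gr against PreGr (-0.71 and -0.74). In CMP against MPP4 0 of these 12 were called by limma. In MPP2 against LT-HSC 7 of the 10 H3 probes rose (median 1.97, all probes called 6.67%), and 0 of the 12 H2B and H4 probes were called. There the 2 probes that pair with H2A and H3 genes rose too (median 1.25). In GMP against CMP 4 of the 10 H3 probes fell (median -2.12, all probes called 0.731%), and 0 of the 12 were called. These 2 comparisons rest on the single arrays that link the sets.

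H3.3 was read by 6 further probes that pair H3f3a (4 probes) or H3f3b (2 probes) with a predicted gene. Their mean was 11.97 (range 11.97 to 11.98 over 3 arrays) in GMP 1 to 3, 12.30 (range 12.28 to 12.31 over 3 arrays) in PreGr and 12.71 (range 12.54 to 12.80 over 3 arrays) in Gr. No 2 of these ranges overlapped. In Gr against PreGr 6 of 6 rose, with a median of 0.41, and in PreGr against GMP 5 of 6 rose, with a median of 0.33 (all probes called 13.3%). In MPP2 against ST-HSC none was called, by limma, and the median was -0.16. So H3.3 probes were higher in granulocytes, where the replication-dependent genes were lower, and which of the paired genes gave the signal cannot be told apart.

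The 7 germline members are known for expression in testis or oocytes. In MPP2 against ST-HSC 2 of them rose and 0 fell (all genes 4.88% and 5.95%), as in MPP2 against LT-HSC (5.36% and 2.80%). H2ac1 and H2bc1, testis genes that share a promoter window, were called in MPP2 against ST-HSC at 0.72 (SE 0.12, adjusted p = 3.36e-04) and 1.15 (SE 0.19, adjusted p = 2.72e-04). H2bc1 had 6.58, 7.14 and 7.47 in ST-HSC and 8.13, 8.32 and 8.19 in MPP2. Other probes pair H2bc1 with further H2B genes, 15 genes to a probe. Whether mRNA of related genes adds to the signal of its own probe was not tested. H2ac1 and H2al2a were called in MPP2 against LT-HSC at 1.17 (SE 0.25, adjusted p = 0.00972) and 0.66 (SE 0.17, adjusted p = 0.0243). The call of H2al2a ended without MPP3 1, at 0.68 (adjusted p = 0.0508), or MPP3 2, at 0.64 (adjusted p = 0.0558). H1f6, H1f7, H1f8 and H2ab1 were not called in any of the 10 comparisons.

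Genes of DNA replication make the machinery that copies DNA in S phase. Of 25 measured, 20 were higher and 0 lower in MPP2 than in ST-HSC (median 0.82, all genes 4.88% and 5.95%). They were led by Rrm2, a ribonucleotide reductase subunit, at 1.85 and Pole, a DNA polymerase subunit, at 1.55. In MPP3 against ST-HSC 12 were higher (all genes 1.96%), a count of 2 without MPP3 1, 5 without MPP3 2 and 7 without ST-HSC 1. CMP against MPP4 had 6 higher and 0 lower (all genes 4.41% and 2.82%), a count of 3 without MPP4 3, CMP 1 or CMP 3. Gr had 24 lower than PreGr and 0 higher (median -1.32, all genes 14.0% and 12.5%), led by Pola1, a DNA polymerase subunit, at -1.79. Mitosis genes numbered 17 measured, of which 17 were higher in MPP2 than in ST-HSC (median 2.13) and 17 lower in Gr than in PreGr (median -0.91). In MPP3 against ST-HSC 16 were higher (median 1.65). ST-HSC against LT-HSC had 0 higher and 9 lower (median -1.44, all genes called 1.47%), a count of 3 without MPP3 1 and 5 without ST-HSC 3. Against LT-HSC, 5 were higher in MPP2 (all genes 5.36%), or 2 without MPP3 2. In MPP4 3 were higher (all genes 1.39%), or 1 without MPP4 4 or MPP4 5.

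In PreGr against GMP the list medians differed in sign, a difference that was not tested. There 1 DNA replication gene rose and 8 fell, with a median of -0.41, among them Gins1 at -1.01, Pole at -0.91 and Mcm6, of the replicative helicase, at -0.83. Without GMP 1, PreGr 1 or PreGr 3 the fallen numbered 5, 4 and 4. Mitosis genes had 2 higher and 0 lower (median 0.18), a count of 0 without PreGr 1 and of 1 without GMP 1, GMP 2, GMP 3 or PreGr 2. Replication-dependent histones had 3 higher and 1 lower. Of all genes 7.99% rose and 11.0% fell, so the mitosis and histone genes that rose were near the share of all genes. Array medians of DNA replication stood at 9.86, 9.79 and 9.97 in GMP 1 to 3 and 9.30, 9.67 and 9.24 in PreGr, and those of replication-dependent histones at 9.18, 9.22 and 9.36 and 9.68, 9.64 and 9.32.

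**Figure D4:**
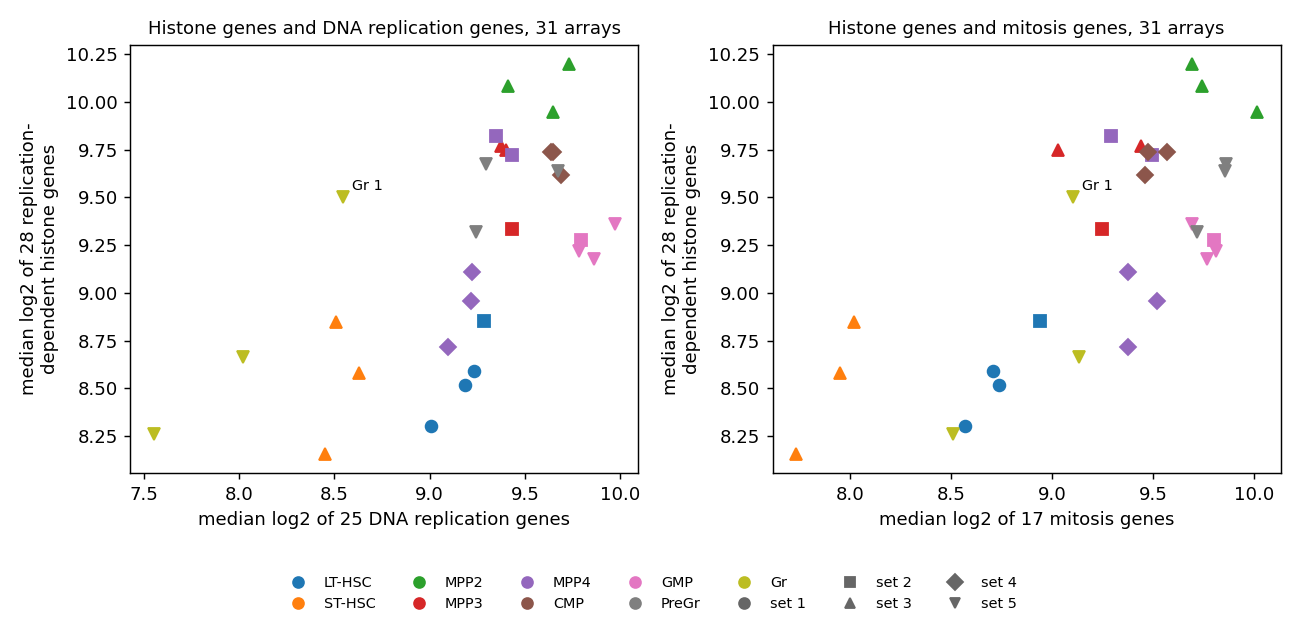
Each point is 1 of the 31 arrays, with the median log2 value of 25 DNA replication genes (left) or 17 mitosis genes (right) on the horizontal axis and of the 28 replication-dependent histone genes on the vertical axis, colour by population and shape by array set. ST-HSC and Gr lie to the left with DNA replication medians of 7.55 to 8.63, GMP to the right at 9.79 to 9.97 with histone medians no higher than 9.36, and Gr 1 lies above the other Gr arrays.

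Histone chaperones carry histones to and from DNA. Of 25 measured chaperone and exchange genes 6 were higher and 1 lower in MPP2 than in ST-HSC (median 0.18), led by Asf1b at 1.43, Nasp at 0.91 and Chaf1a at 0.86, which hand new H3 and H4 to replicating DNA. In PreGr against GMP 0 rose and 8 fell, with Chaf1b at -0.88, a count of 4 without GMP 1, GMP 2 or PreGr 3 and of 5 without GMP 3 or PreGr 1. From PreGr to Gr 0 rose and 12 fell, with Hat1, the enzyme that acetylates new H4, at -1.59 and Nasp at -1.42. Of 15 genes of histone mRNA synthesis and processing 5 were higher and 0 lower in MPP2 than in ST-HSC, with Slbp, the stem-loop binding protein, at 0.72 (SE 0.12, adjusted p = 2.65e-04), a count of 2 without ST-HSC 3 and 3 without MPP2 1. From GMP to PreGr 0 of these 15 rose and 5 fell, and 2 fell without GMP 1. In Gr against PreGr 1 rose and 6 fell, with Eri1, a 3′ exonuclease that acts on histone mRNA, at -1.19 and Npat, the coactivator of the histone clusters, at -0.96. For scale, 4.88% of all genes rose and 5.95% fell in MPP2 against ST-HSC. The shares were 7.99% and 11.0% in PreGr against GMP and 12.5% and 14.0% in Gr against PreGr.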

How the data were processed

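RNA of 31 samples, 20000 sorted cells each, was amplified (NuGen Pico WTA) and hybridised to Affymetrix whole-transcript arrays, per the labels' protocols. The deposited values are log2 values made by RMA by the authors, per the submitters' processing notes (version not stated); aligner and build do not apply, and the number of arrays limits precision. Array medians differed between 5 sets of arrays, so all 35557 probes were quantile-normalized again. A single gene was given for 21789 probes (21698 found in RefSeq), several genes for 1621, and 12147 are unnamed. The brightest probe stood for each of 19938 genes (999 have more than 1). limma 3.58.1 (R 4.3.3) fitted a mean per population plus a term per set, leaving 18 residual degrees of freedom, and used Benjamini-Hochberg adjustment over 19938 genes and calls under 0.05. A set effect is thus taken to be equal for all populations in it.

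The members and lists were chosen with earlier results of these data known. In each comparison up to 6 called members per class with the largest change, all members with a polyadenylated form and the main variants were named; H2bc14, H4c4 and H1f3 were named after their values were seen. Replicate numbers are shared between groups: same-numbered arrays correlated above 0.1 in every pair only for MPP4 and LT-HSC (0.126 to 0.271), and there not after set adjustment (-0.029 to 0.060), and the labels name no shared animal. Alternatives were the deposited values, no set block, the mean over probes, leaving out the lowest 20% of genes, a replicate block and leaving out each array. On simulated data over 19938 genes, 48% (ST-HSC against LT-HSC) to 98% (MPP3 against ST-HSC) of 2-fold changes were recovered. Figures used matplotlib 3.10.9.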

Additional observations from a re-analysis of the deposited data

Results flagged for a closer look

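In 7 of 144 groups of 4 or 5 arrays, 1 array lay far from the others by Dixon's criterion, and chance alone marks about 1 in 20 groups. In GMP, GMP 4 was the lowest for H2bc22 at 6.25 (others 6.84 to 6.86), for H4c6 at 9.28 (others 9.91 to 10.02) and for H2ax at 9.75 (others 10.15 to 10.19). GMP 1 was the highest for Macroh2a2 at 8.23 (others 7.63 to 7.72). In LT-HSC, LT-HSC 4 was the lowest for H2bc4 at 8.64 (others 9.51 to 9.67) and the highest for H4c3 at 9.59 (others 8.42 to 8.51). LT-HSC 3 was the highest for H2az2 at 10.15 (others 9.78 to 9.83). GMP 4 and LT-HSC 4 are set 2 arrays in populations that otherwise lie in another set.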

How the results depend on the processing

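Counts of called replication-dependent members are given first and of variants second. Without the set block they were 5 and 3 in ST-HSC against LT-HSC, 22 and 6 in MPP2 against LT-HSC, 9 and 2 in MPP4 against LT-HSC, 0 and 1 in CMP against MPP4 and 1 and 1 in GMP against CMP. Of all 19938 genes 1704 were then higher and 2838 lower in ST-HSC against LT-HSC. Higher and lower genes numbered 3441 and 3756 in MPP2 against LT-HSC and 2457 and 2475 in MPP4 against LT-HSC. They numbered 640 and 376 in CMP against MPP4 and 1084 and 1239 in GMP against CMP. On the deposited values with the set block, replication-dependent counts were 0 (MPP2 against LT-HSC, with 1 variant), 1 (MPP4 against LT-HSC), 14 (CMP against MPP4), 1 (GMP against CMP) and 2 (PreGr against GMP). Without the lowest 20% of genes MPP2 against LT-HSC had 4. The cause was not tested. Leaving out 1 array gave 1 to 6 and 2 to 3 in CMP against MPP4, 1 to 2 in GMP against CMP, 9 to 24 and 2 to 5 in Gr against PreGr, 0 to 4 and 1 to 2 in MPP2 against LT-HSC, 7 to 11 and 2 to 3 in MPP3 against ST-HSC, 1 to 2 in MPP4 against LT-HSC, 2 to 4 in PreGr against GMP, 19 to 22 in MPP2 against ST-HSC and 0 to 1 variants in MPP2 against MPP3. With the replicate number as a block beside the set, counts were 23 in MPP2 against ST-HSC, 12 in MPP3 against ST-HSC and 23 in Gr against PreGr, and no count moved over 1.5 times. That block could not be fitted for ST-HSC or MPP2 against LT-HSC or for the F test, nor could comparisons without the array that links their sets (LT-HSC 4, MPP3 3 or GMP 4). No called change of a member turned its direction under these alternatives. Of changes not called, 50 of 339 turned their sign without the set block, 16 of them in ST-HSC against LT-HSC, where H1f2 went from 0.79 to -0.35 and the median of all genes from 0.094 to -0.051; in MPP2 against LT-HSC that median went from 0.16 to 0.0038.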
